A study of Mus musculus with 24 samples.

Results

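The clustered protocadherins are the genes whose GENCODE mouse symbol starts with Pcdha, Pcdhb or Pcdhg. All 58 genes with such a symbol, out of 52636 in the count files, had a mean of at least 5 sense counts over the 24 libraries, as did 22731 genes in all. They comprised 14 Pcdha, 22 Pcdhb and 22 Pcdhg genes, and the lowest of them, Pcdha4, had a mean of 8.63 counts. RNA-seq was done on bilateral punches of the nucleus accumbens (NAc), a ventral striatal reward region, of mice killed at postnatal day 50, C57BL/6 by the labels and C57BL/6J by the study's methods. Each sex contributed 6 control (Con) and 6 stressed (MSUS) mice, and each mouse gave 1 library. Con litters were left undisturbed, whereas MSUS litters were separated each day from postnatal day 1 to 14 from a dam that was itself stressed at unpredictable times, for 2 h per day by the labels and 3 h by the study's methods. The tissue was taken before the study's cocaine testing began. The labels do not tie animals to litters, so littermates cannot be told from unrelated animals. A punch also holds whatever cells border the NAc, and in bulk tissue fewer cells of a type cannot be told apart from less RNA per cell.

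Clustered protocadherins are cell surface proteins of the cadherin superfamily. Each neuron uses a small set of them, chosen largely by which promoters are active, and neighbouring cells or branches that carry matching sets recognise each other. The family is known for its roles in dendritic self-avoidance, axonal tiling and neuronal survival. A Pcdha or Pcdhg transcript joins 1 long variable exon, with its own promoter, to a few constant exons that all genes of the cluster share, whereas Pcdhb genes have no constant part. The C-type genes Pcdhac1, Pcdhac2, Pcdhgc3, Pcdhgc4 and Pcdhgc5 are used more evenly between cells than the alternate genes.

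That arrangement decided what could be counted. All 58 genes lay on the plus strand of chromosome 18 of GRCm38, with the Pcdha cluster from 36930184 to 37187661, Pcdhb from 37264938 to 37524479 and Pcdhg from 37661793 to 37841873. STAR, the aligner used by the authors, drops a read pair as ambiguous when it overlaps exons of more than 1 gene, so pairs on constant exons entered no gene's count. In the GENCODE M21 models, the share of a gene's exon bases that no other gene on the strand held was at the median 46.4% in Pcdha, 100% in Pcdhb and 55.3% in Pcdhg. In Pcdhb, 20 of 22 genes had no shared base, and Pcdhb21 and Pcdhb22 kept 90.3% and 93.1%. Pcdha4 stood lowest with 494 unshared bases, 8.56% of its exons, because the read-through model Gm42416 holds most of its variable exon. This model and the other models that run from Pcdha into Pcdhg, Gm37013 and Gm37388, had 0 counts themselves, as had Gm38182, a transcript model within the 3′ end of Pcdhg. The counts of Pcdha and Pcdhg genes thus came mostly from variable exons, and in some genes also from other unshared exons: Pcdha11 (ENSMUSG00000102206) had 4606 unshared bases against 3323 in its first exon, and Pcdhgb4 had 3588 against 2549.

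Variable exons were distinct enough to be told apart by most reads. Of all 100-base windows in a gene's first exon, the share also found in another member ran from 0 to 9.65% in Pcdha, where Pcdha11 (ENSMUSG00000102206) was highest. In Pcdhb it ran from 0 to 2.31%, at Pcdhb6, outside the pair Pcdhb21 (7.73%) and Pcdhb22 (5.47%). The windows of that pair lay in the exon bases that their models share on the genome, which entered neither count. Most Pcdhga and all C-type genes had 0%, whereas Pcdhgb1 and Pcdhgb2 reached 9.69% and 9.82%. GENCODE M21 gives the symbol Pcdha11 to a pair of genes, ENSMUSG00000007440 upstream and ENSMUSG00000102206 downstream, which are kept apart by identifier here. Counts of the genes with the higher shares, apart from Pcdhb21 and Pcdhb22, are the less certain ones.

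Levels were compared per kilobase (kb) of unshared exon, as mean sense counts per library. These libraries kept intronic RNA, and the introns of a Pcdha or Pcdhg gene hold the variable exons downstream of it. Unspliced transcripts of upstream genes may thus add to the counts of genes further downstream, by an amount that was not measured. Pcdhg was the most abundant cluster, with a median of 357 counts per kb (range 150 to 1522), against 142 in Pcdhb (range 23.8 to 284) and 113 in Pcdha (range 17.5 to 767). The 3 genes with the highest values were all C-type genes. Pcdhgc5 had 1522 counts per kb, Pcdhgc3, which is known to promote dendrite arborization, had 1201, and Pcdhac2, known for the tiling of serotonergic axons, had 767. The other C-type genes were lower, Pcdhgc4, needed for neuronal survival, at 256 and Pcdhac1 at 111. Among alternate genes, Pcdhga11 (654) and Pcdhgb6 (603) led Pcdhg, Pcdha12 (215) and Pcdha5 (148) led Pcdha, and Pcdhb17 (284), Pcdhb20 (279) and Pcdhb16 (273) led Pcdhb. The lowest were Pcdha4 (17.5), Pcdhb1 (23.8), Pcdha1 (36.7) and, within Pcdhg, Pcdhga1 (150).

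**Figure D1:**
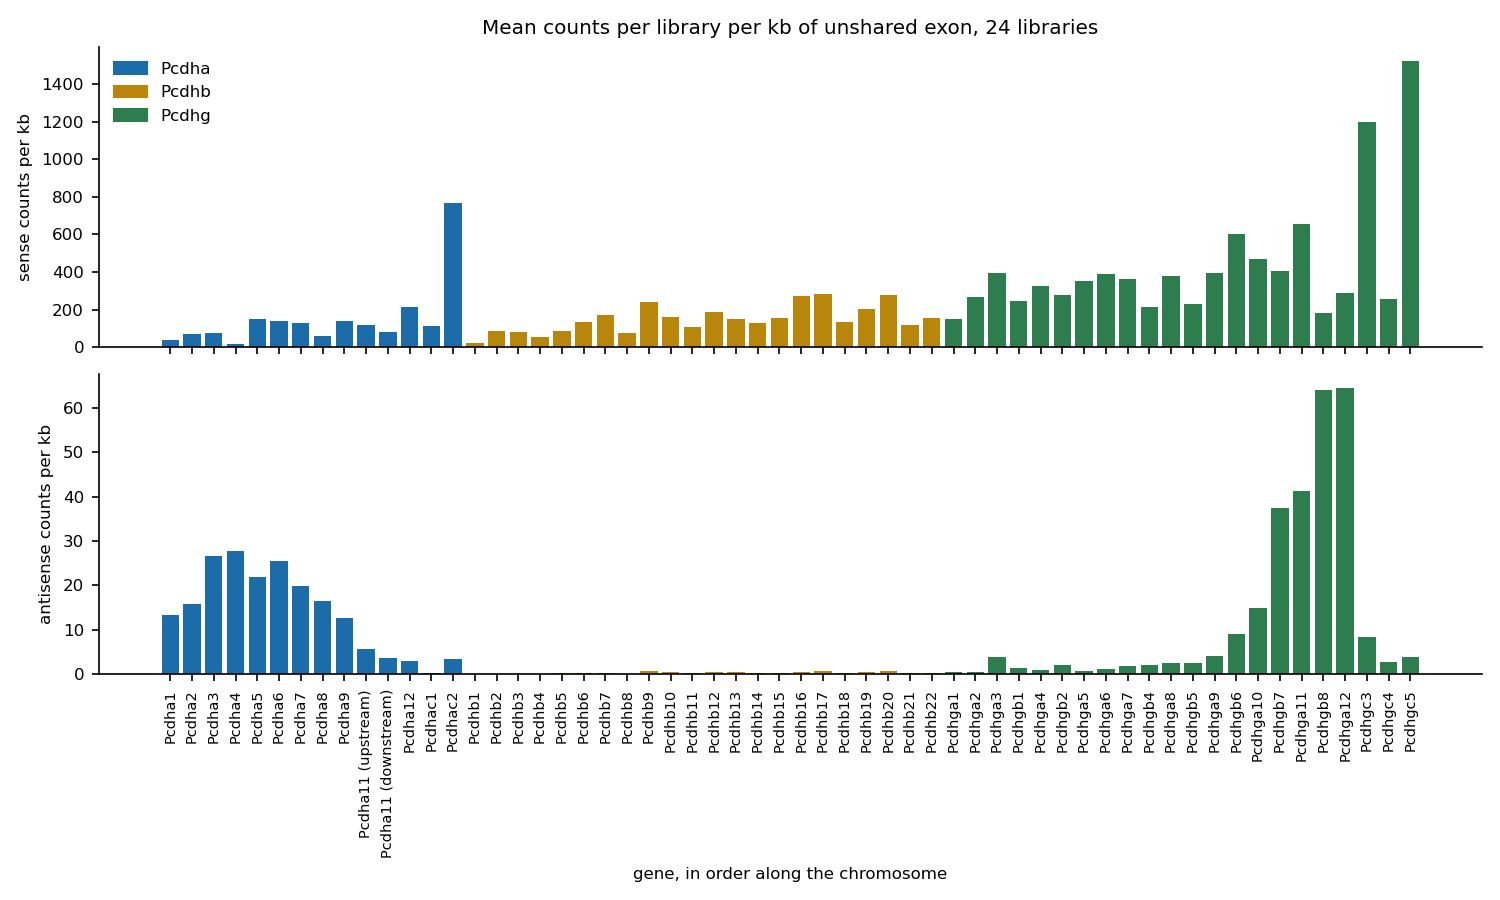
Mean counts per library and per kb of unshared exon over 24 libraries, on the sense strand (top) and the antisense strand (bottom), for the 58 genes in their order along the chromosome. Sense counts peaked at the C-type genes Pcdhac2, Pcdhgc3 and Pcdhgc5, whereas antisense counts were highest at Pcdhgb8 (63.9 per kb) and Pcdhga12 (64.3 per kb) and lay near 0 throughout Pcdhb.

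Relative to their means, the summed normalized counts of Pcdhb and Pcdhg varied less between animals than that of Pcdha. Normalized counts are sense counts divided by DESeq2 size factors over the 24 libraries. Over these, the Pcdha sum ran from 4832 to 7016, the Pcdhb sum from 12228 to 15503 and the Pcdhg sum from 27012 to 32890. In percent of the 3 clusters together, Pcdha made up 11.3 ± 1.23 (SD, n = 24), Pcdhb 28.1 ± 1.22 and Pcdhg 60.6 ± 1.52. Pcdhac1 and Pcdhac2 together held 45.7% ± 2.07 (SD, n = 24) of the Pcdha sum, and the 3 C-type Pcdhg genes held 39.1% ± 1.70 of the Pcdhg sum. In females the Pcdha sum was 5837 ± 629 (SD, n = 6) in Con and 5387 ± 402 in MSUS, and in males 5548 ± 404 and 5707 ± 597. The Pcdhb sum was 14108 ± 1089 and 14515 ± 475 in females and 13777 ± 1048 and 13731 ± 634 in males. The Pcdhg sum was 30506 ± 2052 and 30213 ± 1643 in females and 30395 ± 1843 and 29865 ± 978 in males. The ranges of the groups overlapped for each cluster.

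Within each cluster, the typical single gene scattered more than the sum did. The median coefficient of variation within a group, over the 58 genes, lay between 9.01% in MSUS females and 11.7% in Con females. The steadiest gene of MSUS females was Pcdhgc3 (3.17%). The highest value of each group belonged to Pcdha4 or Pcdhb1, the genes with the lowest levels, with 50.4% for Pcdha4 in Con males and 45.8% for Pcdhb1 in MSUS males.

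The first comparison asks whether early-life stress changed these genes in the female NAc. Of the 57 members tested (Pcdha4 was too low), 4 passed edgeR's quasi-likelihood test at an adjusted p under 0.10, or 7.02%, against a background of 25.1% of all genes tested. Pcdha2 and Pcdhac2 fell, and Pcdhgb5 and Pcdhgb8 rose. In Pcdha, 2 of 13 tested genes passed, in Pcdhb 0 of 22 and in Pcdhg 2 of 22. DESeq2 called 5 members, against 28.1% of all genes, and 6 members had an unadjusted p under 0.05 in edgeR, against 32.7% of all genes, none of the 6 in Pcdhb. No member's 2 groups were free of overlap, against 3.81% of all genes not overlapping and higher in MSUS and 3.41% not overlapping and lower. The count rested on single animals: it was 0 without MSUS female 2 or MSUS female 3, with 3358 of 20712 and 3102 of 20728 genes called, and 7 without MSUS female 1, with 5737 of 20707 called. Within the libraries numbered 1 to 12 and 13 to 24 it was 0, but there 0.112% and 0% of all genes were called, so these counts say nothing about the members.

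Pcdha2, an alternate gene near the 5′ end of its cluster, ran from 141 to 168 normalized counts (median 149) in MSUS females and from 154 to 228 (median 174) in Con females. All 6 MSUS values lay below the Con median, and the groups overlapped. Its log2 fold change was −0.27 (SE 0.10, adjusted p = 0.0851, edgeR's quasi-likelihood test). Pcdhac2 ran from 2002 to 2315 (median 2144) in MSUS females and from 2155 to 2923 (median 2402) in Con females, again with all 6 MSUS values below the Con median. The difference on the log2 scale was −0.18 (SE 0.067, adjusted p = 0.0881, edgeR). The highest Con value of both genes came from Con female 3. Within the 2 library sets the differences were −0.24 and −0.30 for Pcdha2 and −0.25 and −0.099 for Pcdhac2.

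Pcdhgb8, an alternate gene near the 3′ end of the Pcdhg array, is annotated as a polymorphic pseudogene, whereas the other members are annotated as protein-coding. It ran from 411 to 569 (median 478) in MSUS females and from 345 to 459 (median 418) in Con females. Its log2 fold change was 0.25 (SE 0.091, adjusted p = 0.0762, edgeR), and 5 of 6 MSUS values exceeded the Con median. For Pcdhgb5 the MSUS values ran from 964 to 1359 (median 1089) and the Con values from 848 to 1050 (median 984). That rise was 0.22 on the log2 scale (SE 0.084, adjusted p = 0.0909, edgeR), with 5 of 6 MSUS values above the Con median. Within the library sets Pcdhgb8 had 0.40 and 0.12, and Pcdhgb5 0.30 and 0.14. In males the same 4 genes had log2 differences of 0.16 (Pcdha2), 0.080 (Pcdhac2), −0.13 (Pcdhgb8) and −0.066 (Pcdhgb5), and none passed the test.

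**Figure D2:**
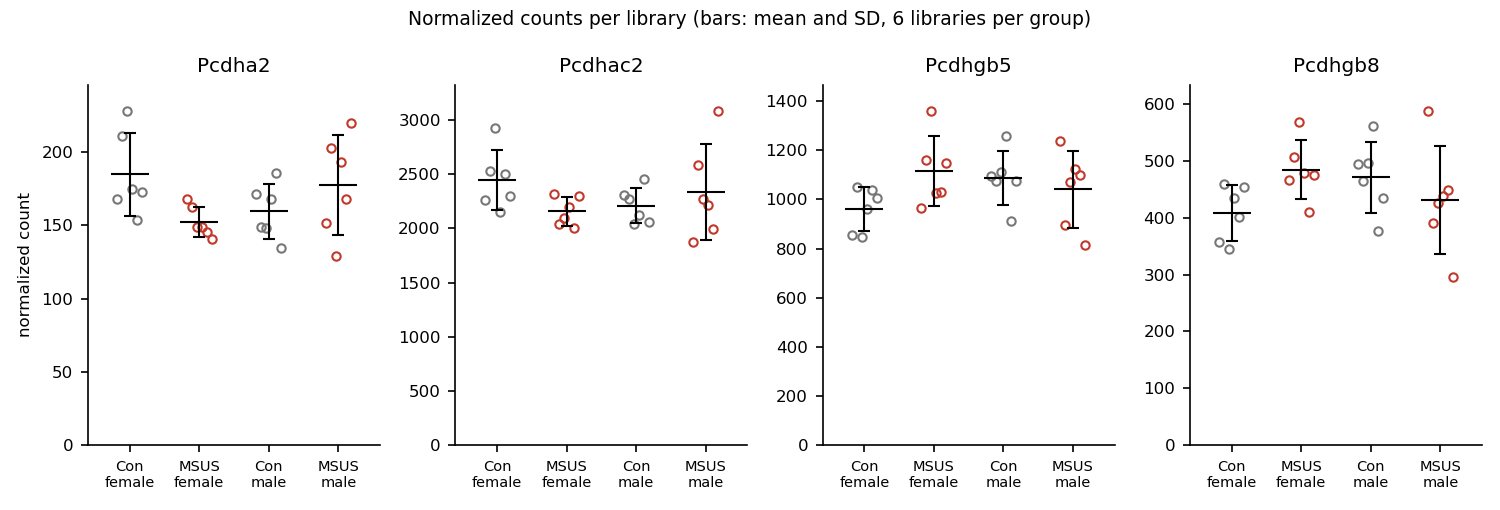
Normalized counts per library of the 4 genes called in females, with the mean and SD of each group of 6. Con and MSUS females overlapped in each gene, with all 6 MSUS females below the Con median for Pcdha2 and Pcdhac2, and the male groups overlapped throughout.

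The values of each cluster in females are described here by medians of log2 fold changes, with no test between clusters. The Pcdha median was −0.13, and 4 of 13 genes lay above 0. The Pcdhb median was 0.025 with 16 of 22 above 0, the Pcdhg median was 0.011 with 15 of 22 above 0, and the median over all 20571 genes tested was −0.0027. Con female 3 moved these medians: without it the Pcdha median was −0.040 and the Pcdhg median −0.027, with 8 of 22 genes above 0. Without MSUS female 5 the Pcdha median was −0.069, and without Con female 1 or MSUS female 3 the Pcdhg median was −0.0060 or −0.014. Splitting Pcdhg by subfamily, all 7 Pcdhgb genes lay above 0 with a median of 0.14, against 7 of 12 Pcdhga genes with a median of 0.0044. The median SE of a member was 0.085, so that most single values lay within their error.

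Other Pcdha genes had values similar in size to Pcdha2 with wider errors. Pcdha3 had a log2 difference of −0.31 (SE 0.15) and Pcdha1 of −0.30 (SE 0.16), with adjusted p = 0.178 and 0.213 in edgeR's test. Pcdha3 ran from 134 to 215 normalized counts in MSUS females and from 169 to 303 in Con females. Toward the 3′ end, Pcdha12 had −0.20 (SE 0.11), Pcdha11 (ENSMUSG00000102206) 0.19 (SE 0.084) and Pcdhac1 0.12 (SE 0.066), and Pcdha8, in the middle of the array, had 0.072 (SE 0.13), none past the threshold. Pcdhac1 thus lay on the other side of 0 from its C-type neighbour Pcdhac2: all 6 MSUS females exceeded the Con median, at 255 to 307 counts against 246 to 288.

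In Pcdhb, the only member with a log2 value over 0.5 was Pcdhb1, at 0.55 (SE 0.26, adjusted p = 0.167 in edgeR). It ran from 54.4 to 97.1 normalized counts in MSUS females and from 18.2 to 78.1 in Con females, and its level is the lowest of that cluster. The others lay between −0.080 for Pcdhb22 and 0.13 for Pcdhb7 and Pcdhb8, with Pcdhb13 at −0.052. The most abundant Pcdhb genes had 0.038 (Pcdhb17), 0.016 (Pcdhb20) and 0.10 (Pcdhb16), each under 2 SE.

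None of the C-type genes of Pcdhg passed. Pcdhgc5, an interactor of GABA-A receptors, ran from 6057 to 7299 in MSUS females and from 6899 to 7747 in Con females, a log2 difference of −0.11 (SE 0.046, adjusted p = 0.110, edgeR). Pcdhgc3 had −0.078 (SE 0.050) and Pcdhgc4 0.087 (SE 0.052). Of the alternate genes, Pcdhgb4 had 0.19 (SE 0.095) and Pcdhga1, the one with the lowest level, 0.12 (SE 0.12). Pcdhga11, the alternate gene with the highest level, had −0.0045 (SE 0.041), the smallest error of any member.

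**Figure D3:**
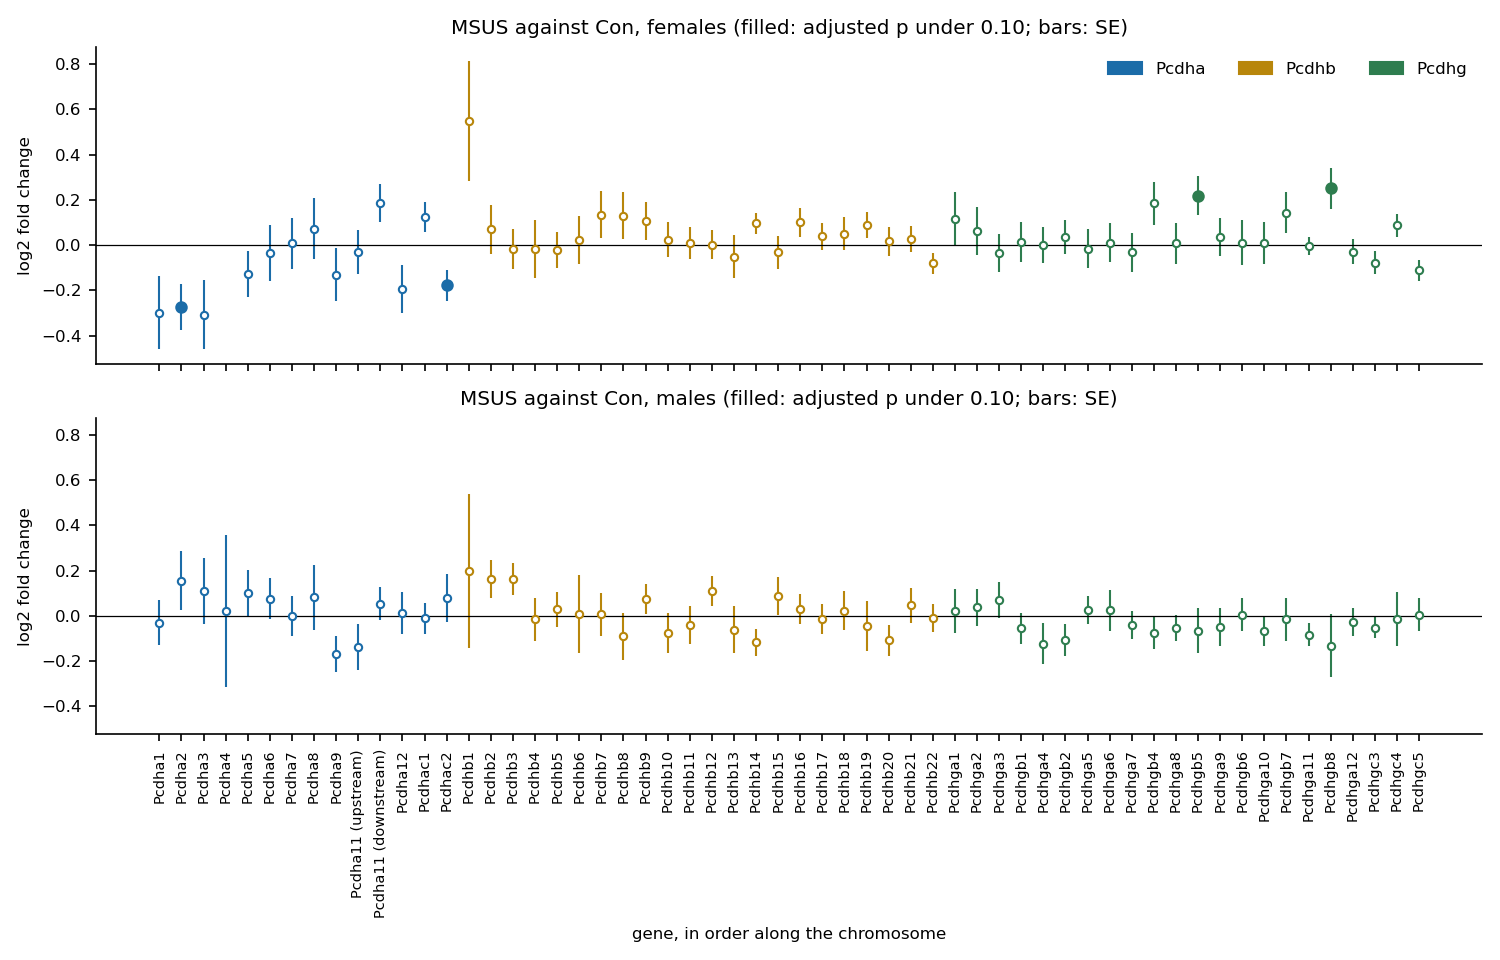
Log2 fold change of MSUS against Con with its SE for each tested gene in chromosome order, in females (top) and males (bottom), filled where the adjusted p was under 0.10. In females 4 genes were filled and the Pcdha values centred at −0.13. In males no gene was filled and values lay between −0.17 (Pcdha9) and 0.20 (Pcdhb1).

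Several library measures differed between Con and MSUS females. The share of uniquely mapped pairs assigned to no gene, which holds pairs from introns and unannotated regions, was 31.0% to 34.8% in Con females and 36.3% to 43.9% in MSUS females, with no overlap (exact two-sided permutation test, p = 0.00216, the smallest 6 against 6 can give, and 0.0317 after Benjamini-Hochberg adjustment over 44 tests). The share of these pairs dropped as ambiguous in the sense count was 0.883% to 0.939% in Con and 0.763% to 0.867% in MSUS females, again without overlap (exact permutation p = 0.00216, adjusted p = 0.0317). The antisense share of strand-specific gene counts was 4.96% to 5.08% in Con and 5.07% to 5.22% in MSUS females (exact permutation p = 0.00433, adjusted p = 0.0317). The summed level of 9 markers of cortical excitatory neurons, a cell type that borders the NAc, was 30066 to 106740 normalized counts in Con females and 20331 to 50380 in MSUS females (exact permutation p = 0.0325, adjusted p = 0.143). Of these 9 markers, 7 lay below 0 and 2, Emx1 and Nrgn, were called lower, against 11.9% of all genes, and none was at 0. Of 7 oligodendrocyte markers, 5 were called lower, with sums of 213561 to 322816 in Con and 194942 to 238493 in MSUS females (exact permutation p = 0.0130, adjusted p = 0.0635). Of 8 astrocyte markers 2 were called lower (sums, exact permutation p = 0.00866, adjusted p = 0.0544), as were 2 of 6 interneuron markers (p = 0.0130, adjusted p = 0.0635). No marker of oligodendrocyte precursors, microglia or endothelium was called. The 11 markers of striatal projection neurons, the main NAc cell type, were present in every group, with sums of 104021 to 273314 in Con and 183898 to 245855 in MSUS females.

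The protocadherin values in females changed when a score of the cortical markers or the no-gene share was added to the fit. The highest Pcdha sums of all libraries belonged to Con female 3 (7016) and MSUS male 6 (6830), which also had the highest cortical marker scores (6.41 and 6.53, the mean log2 level of the markers). With that score as a covariate, the Pcdha median in females changed from −0.13 to 0.069 with 10 of 13 genes above 0, Pcdhac2 from −0.18 to −0.059 and Pcdha2 from −0.27 to −0.10. In the same fit the Pcdhg median changed from 0.011 with 15 of 22 genes above 0 to −0.066 with 6 of 22. The 1 member then called by edgeR was Pcdha11 (ENSMUSG00000102206), at 0.31 (adjusted p = 0.0913), with 1646 of 20571 genes called. With the no-gene share as a covariate the Pcdha median moved the other way, to −0.38 with 0 of 13 genes above 0, and Pcdha2 to −0.48. The Pcdhg median was then −0.11 with 3 of 22 genes above 0. In that fit 0 members and 0 of all genes were called by edgeR (5 members with an unadjusted p under 0.05), and Pcdhgb8 and Pcdhgb5 turned from 0.25 and 0.22 to −0.093 and −0.099. Because that share did not overlap between the groups, its part cannot be told apart from that of the group.

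**Figure D4:**
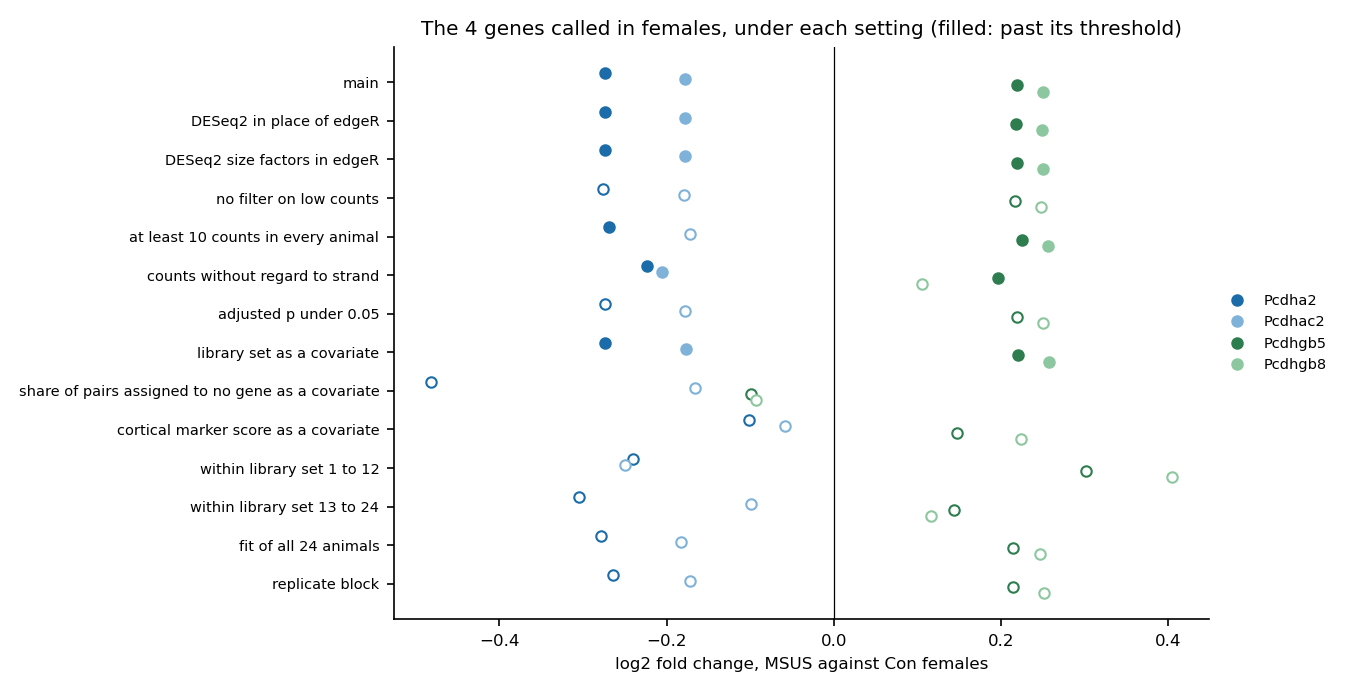
Log2 fold change in females of Pcdha2, Pcdhac2, Pcdhgb5 and Pcdhgb8 under each setting, filled where the gene passed that setting's threshold. The values of Pcdhgb5 and Pcdhgb8 lay below 0 with the no-gene share as a covariate, and Pcdhac2 moved to −0.059 with the cortical marker score.

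The males answer the same question in the other sex. No member of 58 passed edgeR's test, against a background of 0% of 20691 genes in edgeR. DESeq2 also called 0 members, and its share of all genes is not given. A single member, Pcdhb3, had an unadjusted p under 0.05, against 0.923% of all genes. Pcdhb3 ran from 274 to 332 normalized counts in MSUS males and from 252 to 307 in Con males, a log2 difference of 0.16 (SE 0.070, adjusted p = 1.00 in edgeR). The groups overlapped in each member, while 0.0193% of all genes did not overlap with MSUS higher and 0.0193% with MSUS lower. The medians were 0.038 in Pcdha, 0.0073 in Pcdhb and −0.044 in Pcdhg. Of the 7 Pcdhgb genes, 1 lay above 0 (median −0.066). Errors of single genes ran from 0.047 to 0.34, with a median of 0.083.

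Sex differences were compared within each group, and these comparisons share animals with those above. Library measures differed here too. Con females and Con males differed in the no-gene and ambiguous shares, with the means given above (exact permutation p = 0.00433, adjusted p = 0.0317 for each share). MSUS females had lower oligodendrocyte marker sums than MSUS males, 194942 to 238493 against 244270 to 294259 (exact permutation p = 0.00216, adjusted p = 0.0317). The causes of these differences were not tested. Between Con females and Con males, 0 of 57 members passed edgeR's test, against 2.64% of all genes tested (0.799% higher and 1.84% lower in females), and 5 had an unadjusted p under 0.05, against 17.8%. DESeq2 also called 0 members, but its share of all genes is not given, and the shares here are edgeR's. The groups overlapped in each member, whereas 0.858% of all genes did not overlap and were higher in females and 1.15% lower. The smallest p was that of Pcdhb3, at 274 to 374 counts in females and 252 to 307 in males, with a log2 difference of 0.26 (SE 0.092, adjusted p = 0.169, edgeR). Between MSUS females and MSUS males, 0 of 57 passed in edgeR, against 0.135% of all genes (0.0386% higher and 0.0966% lower in females). DESeq2 called 0 members as well, again without a share of its own. In edgeR 4 members had an unadjusted p under 0.05, against 7.29%. Again the groups overlapped in each member, against 0.241% of all genes not overlapping and higher in females and 0.396% lower. Pcdhb14 had the smallest p there, at 1119 to 1281 counts in females and 936 to 1130 in males, a log2 difference of 0.19 (SE 0.057, adjusted p = 0.444, edgeR). All 6 MSUS females exceeded the median of MSUS males for this gene.

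The group-by-sex interaction tests whether the MSUS difference itself differed between females and males. In edgeR 0 of 58 members passed, as did 0% of all genes. DESeq2 called 0 members too, but its share of all genes is not given, and edgeR's 0% does not stand for it. An unadjusted p under 0.05 was seen for 5 members, Pcdha2, Pcdhb14, Pcdhgb4, Pcdhgb5 and Pcdhgb8, against 18.7% of all genes. These 5 were named after their values were seen. The interaction value, female minus male difference, was −0.44 (SE 0.17) for Pcdha2 and 0.38 (SE 0.17) for Pcdhgb8, with adjusted p = 0.213 and 0.248 in edgeR's test. For Pcdhb14 the value was 0.21 (SE 0.076, adjusted p = 0.209, edgeR). A difference between the sexes in the effect of MSUS was thus not shown for any member.

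Antisense counts, from pairs on the strand opposite to the gene, had a pattern of their own along the array. In Pcdhb they stayed at 0.149% to 0.413% of the sense count. In Pcdha they were 36.4% at Pcdha1, 23.1% at Pcdha2, 34.2% at Pcdha3 and 159% at Pcdha4, where antisense counts exceeded sense counts. They lay between 9.16% and 27.8% from Pcdha5 to Pcdha9 and were 1.41% at Pcdha12 and 0.219% at Pcdhac1. In Pcdhg they stayed under 2% from Pcdhga1 to Pcdhgb6. They were 3.19% at Pcdhga10, 9.22% at Pcdhgb7, 6.31% at Pcdhga11, 35.5% at Pcdhgb8 and 22.4% at Pcdhga12. These last genes start within the span of Gm26672, a transcript model on the minus strand, but the first exon of Pcdhga12 runs past its end. The exons of Gm26672 cover the unshared exon of Pcdhga10 and overlap none of Pcdhgb8. Antisense RNAs that start within Pcdha variable exons are known from neurons, where they have been linked to promoter choice.

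The antisense levels of the members did not separate the groups, although the antisense share over all genes was higher in MSUS than in Con females. Normalized antisense counts of Pcdhga12 were 257 to 386 in Con and 252 to 353 in MSUS for females, and 235 to 299 and 214 to 333 for males. The sum over Pcdha1 to Pcdha9 was 357 ± 61.5 (SD, n = 6) in Con and 404 ± 52.9 in MSUS for females, and 383 ± 51.2 and 357 ± 66.3 for males. In an edgeR fit of antisense counts across all genes, scaled by the sense libraries, 0 of 23 tested members were called in females against 19.2% of genes, and 0 of 21 in males against 0%. The remaining members, Pcdhga3 among them, had too few antisense counts to be tested. Pcdhga12 alone had an unadjusted p under 0.05 in females (log2 difference −0.22, SE 0.092, adjusted p = 0.110, edgeR), and Pcdha5 and Pcdha11 (ENSMUSG00000007440) in males. Scaled by the antisense counts themselves, Pcdhga12 was called in females at −0.25 (SE 0.087, adjusted p = 0.0570, edgeR), against 19.9% of genes. DESeq2 was not run on antisense counts.

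Whether strand was used in counting changed the level of many members. Without regard to strand, a pair that overlaps genes on both strands is ambiguous and is lost. Of 58 members, 13 overlap a gene on the minus strand, and 12 of these kept under 90% of their sense count. Pcdhga10 kept 0% of a mean of 1220 counts, since Gm26672 covers its unshared exon. Pcdha11 (ENSMUSG00000102206) kept 9.86%, Pcdhb12 22.5%, Pcdhgc3 34.7%, Pcdhga11 40.9% and Pcdhgb7 61.0%. In the other direction, 9 members gained over 5% because antisense pairs were added, among them Pcdha4 (197%), Pcdha1 (136%) and Pcdhgb8 (135%). The remaining Pcdhb genes kept their level.

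**Figure D5:**
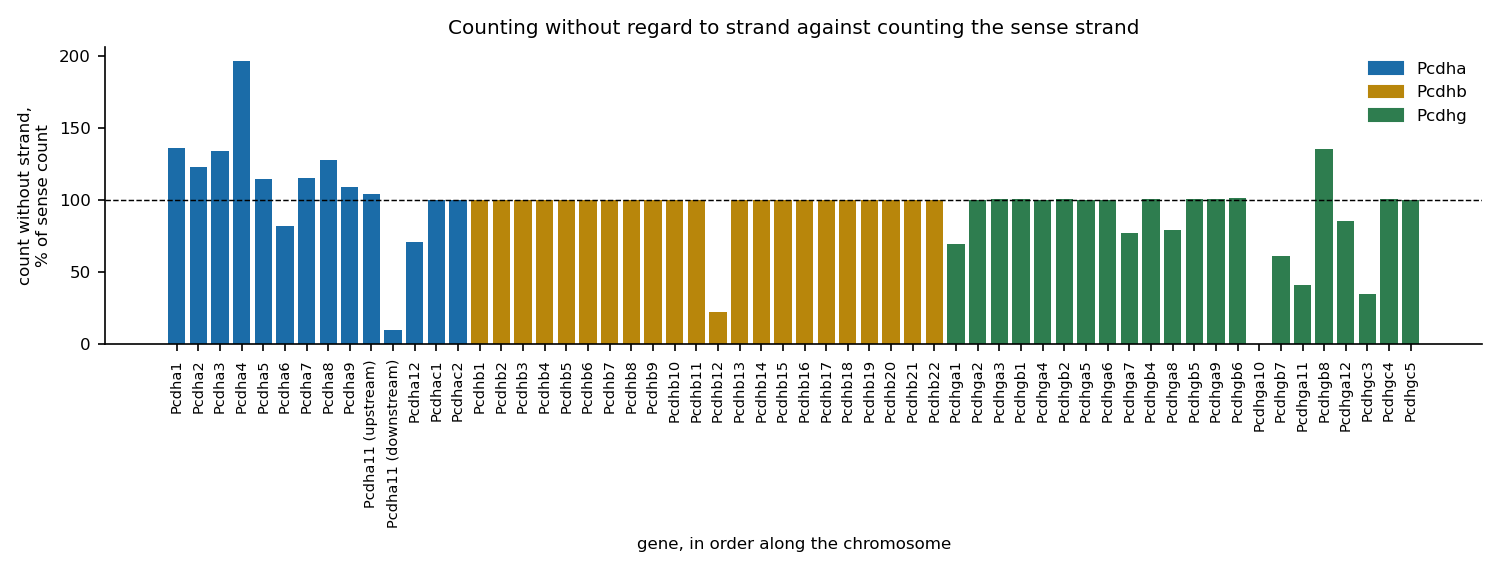
Mean count without regard to strand as a percentage of the mean sense count, per gene in chromosome order over 24 libraries, with a dashed line at 100%. Pcdhga10 stood at 0% and Pcdha4 at 197%, while all Pcdhb genes other than Pcdhb12 stayed at the line.

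The comparison in females was repeated on these counts. Counted without strand, Pcdhgb8 had a log2 difference of 0.11 (adjusted p = 0.376, edgeR) in place of 0.25, and Pcdha11 (ENSMUSG00000102206) had 0.69 (adjusted p = 0.0392) in place of 0.19. Pcdhgc5 was then called as well, at −0.14 (adjusted p = 0.0459), and 5 of 57 tested members passed in all, Pcdhga10 having no counts left, against 29.0% of all genes. Pcdha2, Pcdhac2 and Pcdhgb5 kept their calls.

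Genes that act with the clustered protocadherins were listed from background knowledge. Of 19 regulators of their promoters, including CTCF, cohesin and silencing factors, 5 rose and 3 fell in MSUS females by edgeR's test, against 13.1% and 11.9% of all genes. Smchd1, which silences clustered protocadherin promoters, rose by 0.11 on the log2 scale (SE 0.029, adjusted p = 0.0222), and Wiz, a partner of histone methyltransferases, fell by 0.15 (SE 0.036, adjusted p = 0.0180). Stag1, Stag2, Nipbl and Setdb1 also rose, and Rad21, a cohesin subunit, and Trim28 fell. Of 14 binding partners, 4 fell, Nlgn2 by 0.17 (SE 0.036, adjusted p = 0.00998, edgeR), Brk1 by 0.12 (SE 0.032), Wasf1 and Cyfip2, the last 3 being parts of the WAVE actin complex. Of 12 protocadherins outside the clusters, Pcdh15 rose by 0.36 (SE 0.099, adjusted p = 0.0295, edgeR) and Pcdh1 fell by 0.16 (SE 0.057). DESeq2 called 8 of the regulators, 6 of the partners and 5 of the other protocadherins in females, against 28.1% of all genes. With the cortical marker score as a covariate, edgeR called 0 regulators, 1 partner (Nlgn2) and 0 other protocadherins (4, 4 and 1 with an unadjusted p under 0.05), and Smchd1 (adjusted p = 0.210), Wiz (0.220), Brk1 (0.143), Pcdh15 (0.231) and Pcdh1 (0.694) lost their calls. With the no-gene share edgeR called 0 genes of these lists (3 regulators with an unadjusted p under 0.05), and the log2 difference of Pcdh15 was 0.0019. In males, edgeR and DESeq2 called 0 genes of the 3 lists, and 0 had an unadjusted p under 0.05.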

How the data were processed

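RNA-seq counts came from the NAc of 24 mice. Per the submitters' processing notes and the study's methods, the authors aligned 100 bp read pairs to mm10 with STAR 2.6.1b and GENCODE M15 and deposited raw read-pair counts per gene from unique alignments, in 3 columns: without strand, antisense and sense. Libraries were depleted of rRNA, so intronic RNA was kept, and the 24 sense totals ran from 39923666 to 70575745. Gene models came from GENCODE M21 on GRCm38, the same assembly, which holds 52489 of 52636 identifiers, so lengths may differ from those used in counting. Each comparison was fitted on its own animals with edgeR 4.0.16 (filterByExpr with a minimum count of 10, TMM, robust quasi-likelihood F test) in R 4.3.3, with Benjamini-Hochberg adjustment over all genes tested and a threshold of 0.10. DESeq2 1.42.0 was an alternative, and its size factors scaled the normalized counts and cluster sums, in place of the TMM-scaled CPM first planned. Exact permutation tests used Python 3.11.15 with scipy 1.17.1. Fits were tested on simulated data.

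Named genes were the C-type genes, the 3 highest and the lowest per kb in each cluster, the 3 largest rises and 2 largest falls per cluster in females, the smallest p in each other comparison and 2 genes per background list. The remaining called member, Pcdha2, and genes given as further examples were named after their values were seen. Members, lists and rules were chosen with earlier results of these data known. The estrous stage was left out, since labels give it to 6 females and 6 males. P-values measure the spread between these animals, whose litters are not given. Alternatives were DESeq2, its size factors, no or a stricter filter, counts without strand, a threshold of 0.05, library set (library numbers 1 to 12 against 13 to 24), the no-gene share or the cortical marker score as a covariate, each library set alone, all 24 animals, the replicate number as a block and each animal left out. The antisense fit was added after the data were seen. Protein and promoter sequences were not used here.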

Additional observations from a re-analysis of the deposited data

Results flagged for a closer look

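Of 164 sets of 6 values checked for a single distant value, 5 had one, and chance gives about 1 in 20. In MSUS male 6, Pcdha3 had 262 normalized counts against 176 to 199 in the other 5 MSUS males, and the Pcdha cluster made up 14.3% of the 3 clusters against 10.7% to 11.8%; this library also had the highest cortical marker score (6.53). In MSUS female 6, Pcdhb3 had 371 counts against 304 to 316 in the other 5. In Con female 5, the C-type genes held 48.6% of the Pcdha sum against 45.5% to 46.5%. In Con female 6, the antisense sum over Pcdha1 to Pcdha9 was 476 normalized counts against 316 to 368.

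Antisense counts, which no comparison of sense counts uses, exceeded 10% of the sense count in 10 members. The values were 36.4% for Pcdha1, 23.1% for Pcdha2, 34.2% for Pcdha3, 159% for Pcdha4, 14.9% for Pcdha5, 18.2% for Pcdha6, 15.7% for Pcdha7, 27.8% for Pcdha8, 35.5% for Pcdhgb8 and 22.4% for Pcdhga12. In no Pcdhb gene did the share exceed 0.413%.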

How the results depend on the processing

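The main count was 4 members called in females, with 25.1% of all genes called. It was 0 with no filter on low counts (10.1% of all genes called) and at an adjusted p under 0.05 (15.2%). With the no-gene share as a covariate (0%), within library set 1 to 12 (0.112%) and within library set 13 to 24 (0%) it was also 0. Where hardly any gene was called, a count of 0 says nothing about the members. The count was 0 in the fit of all 24 animals. The share of all genes called in that fit is not given, so this 0 is not read as a result about the members. With the cortical marker score the count was 1 (8% of all genes called). It stayed between 3 and 5 with DESeq2, its size factors, the stricter filter, the library set as a covariate and counts without strand. In these fits 24.9% to 29% of all genes were called. Leaving out 1 animal gave 0 to 7, with 0 without MSUS female 2 or 3, 1 without MSUS female 5, 2 without Con female 1, Con female 5 or MSUS female 6, and 7 without MSUS female 1. Numbers of all genes called are given above only for MSUS females 1, 2 and 3 left out. The other counts are therefore not read as results about the members. Replicate numbers did not pair the animals: correlations of same-numbered animals ran from −0.37 to 0.40, and with the replicate number as a block 0 members and 3800 of all genes, in place of 5156, were called in females. Pcdhgb8 and Pcdhgb5 changed sign to −0.093 and −0.099 with the no-gene share. Males and MSUS females against males stayed at 0 under every alternative run. Con females against males gave 0 to 2 with 1 animal left out (1 without Con female 3, 2 without Con male 5), and the interaction gave 0 to 3 (3 without MSUS male 1) and 1 within library set 13 to 24. Shares of all genes called in these fits are not given, so these counts are not read as results about the members. The antisense count in females went from 0 to 1 with TMM on the antisense counts. Over the named genes, 792 of 936 alternative values kept direction and side of the threshold, 92 lost a call and 15 gained one, and 37 changed sign, 35 of them of genes not called in either fit. Low counts limit Pcdha4 and Pcdhb1. Shared exons, and possibly unspliced transcripts of upstream genes, limit Pcdha and Pcdhg. The causes of these changes were not tested.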
